A study of Mus musculus with 121 samples.

Results

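Genes of myelin and of mature oligodendrocytes were followed through 3 brain regions, 2 mouse models and 3 Gdnf genotypes. The set has 35 genes and was chosen by name: a gene of the count table was taken if its symbol equalled one on a list of 35, and all 35 were found among the 24412 genes of the table. All 35 also passed the filter on low counts in every comparison made.

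RNA of male mice with a conditional Gdnf allele, called cHyper by the study and cKU in the sample labels, was sequenced from prefrontal cortex (PFC), striatum (STR) and substantia nigra (SN), in 121 libraries. Once Cre has acted on it, the allele raises expression of GDNF from its own locus, and the comparisons ask how that alters the transcriptome of each region. In the Nestin-Cre model, 56 libraries came from 21 mice, given as 2 months old in the labels and, for STR and SN, as 2 to 3 months in the text of the study, in which Cre is made in the central nervous system from mid-gestation on. In the AAV-Cre model, 65 libraries came from 22 mice aged 5 to 7 months, which had received the virus in the striatum of both sides at 3 to 5 months. WT mice were wt/wt, HET mice wt/cKU and HOM mice cKU/cKU, all on a mixed 129Ola/ICR/C57bl6 background. WT controls also carried Nestin-Cre in the first model and were also injected with AAV-Cre in the second, so Cre and virus are common to all groups of a model. The Nestin-Cre groups had 8 WT, 6 HET and 4 HOM libraries in PFC, and 6 WT, 7 HET and 6 HOM libraries in each of STR and SN. The AAV-Cre groups had 7 WT, 7 HET and 8 HOM libraries in PFC and in SN, and 7 of each genotype in STR. Mice are named by M and the number in their labels. Mouse M4575 is labelled WT in PFC but HOM in STR and SN, and each library kept its own label. Total counts per library ran from 9869584 to 26750905, and the Nestin-Cre PFC groups had medians of 19561322 in WT, 17720457 in HET and 14359805.5 in HOM.

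Region labels were checked in WT libraries against genes that mark the regions, as mean ± SD in cpm, the counts of a gene scaled by the total counts of its library. Slc17a7, the vesicular glutamate transporter of cortical excitatory neurons, was at 1618 ± 72.4 cpm in PFC, 99.3 ± 94.9 in STR and 66.1 ± 92.9 in SN of Nestin-Cre mice, and at 1467 ± 103, 24.9 ± 15.1 and 68.4 ± 83.5 in AAV-Cre mice. Drd1, a dopamine receptor of striatal projection neurons, was highest in STR, with 373 ± 28.3 and 308 ± 30.4 cpm. Slc6a3, the dopamine transporter, was at 1227 ± 228 and 1285 ± 312 cpm in SN and below 2 cpm on average in the other regions. Each region thus showed its own markers in both models.

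Gdnf itself was highest in STR and low elsewhere. In STR it was at 5.69 ± 1.15 cpm in WT, 6.20 ± 1.71 in HET and 7.04 ± 1.40 in HOM Nestin-Cre mice, and at 6.63 ± 0.718, 7.56 ± 1.03 and 8.72 ± 0.894 cpm in the AAV-Cre groups. The ranges of WT and HOM overlapped in Nestin-Cre STR, while in AAV-Cre STR the lowest HOM library held 7.71 cpm and the highest WT library 7.45 cpm. In PFC the means were 0.466 ± 0.251, 0.411 ± 0.282 and 0.245 ± 0.255 cpm for WT, HET and HOM of the Nestin-Cre model and 0.823 ± 0.332, 1.02 ± 0.540 and 0.849 ± 0.444 cpm of the AAV-Cre model. In SN they were 0.429 ± 0.0941, 0.654 ± 0.468 and 0.694 ± 0.198 cpm in Nestin-Cre mice, and 0.336 ± 0.338, 0.483 ± 0.217 and 0.501 ± 0.239 cpm in AAV-Cre mice. With such low levels in PFC and SN, the genotype labels cannot be checked there through Gdnf. By the study's account, recombination leaves the Gdnf mRNA with a shorter untranslated end, while reads were counted over annotated exons. Counts of WT and mutant mice may thus not cover the same length of mRNA. By quantitative PCR the study found Gdnf mRNA raised in the striatum of HET and HOM mice of both models. The part of the shorter mRNA in the cpm given here was not tested.

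Oligodendrocytes wrap axons of the central nervous system in myelin, a stack of membrane that speeds conduction and is densest in white matter tracts. Myrf, Sox10, Olig1, Olig2 and Nkx6-2 are transcription factors of the lineage, and Myrf and Sox10 drive the genes for myelin proteins and for the enzymes of myelin lipids. Oligodendrocytes also feed axons and buffer ions through gap junctions, to which Gjb1 belongs.

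In WT mice the 35 genes together took 0.552 ± 0.080% of all counts in PFC, 0.880 ± 0.23% in STR and 2.80 ± 0.55% in SN of the Nestin-Cre model, and 0.562 ± 0.052%, 1.11 ± 0.18% and 1.86 ± 0.27% in the AAV-Cre model (mean ± SD). Per kilobase of annotated exon, so that genes can be set side by side, Mbp had the highest level of the 35 in all 6 WT groups. Mbp, the protein that holds the cytoplasmic faces of compact myelin together, was at 360.5 ± 61.5 cpm per kb in PFC, 584 ± 187 in STR and 1822 ± 396 in SN of Nestin-Cre WT mice. In AAV-Cre WT mice it was at 378 ± 39.9, 758 ± 147 and 1317 ± 217 cpm per kb. Next in level came the enzyme Cnp of non-compact myelin in Nestin-Cre PFC and STR (120.4 ± 18.9 and 195 ± 41.1 cpm per kb), the iron carrier Trf in the SN of both models (669 ± 154 and 507 ± 89.8) and in AAV-Cre STR (271 ± 53.9), and the membrane-bound Plekhb1 in AAV-Cre PFC (143 ± 10.7). Ninj2, an adhesion molecule, had the lowest level in every group, from 1.75 ± 0.426 cpm per kb in AAV-Cre PFC to 11.2 ± 3.03 in Nestin-Cre SN. Among the transcription factors, Olig1 was the highest in each group, with 33.0 ± 7.03 cpm per kb in Nestin-Cre PFC and 112 ± 22.3 in Nestin-Cre SN, and Nkx6-2 was the lowest in PFC, with 2.56 ± 0.656 and 3.54 ± 1.35 cpm per kb.

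The genes differed between regions of WT mice in nearly every case, with SN highest. Regions were compared with edgeR's quasi-likelihood test in 1 fit of all WT libraries of a model, and a gene was called where its Benjamini-Hochberg adjusted p over all genes of the fit was under 0.1. In Nestin-Cre mice 32 of the 35 were higher in STR than in PFC (34.2% of all genes tested were called higher), with a median log2 difference of 0.61. SN stood above PFC for all 35 genes (37.6% of all genes), with a median of 2.18, and above STR for all 35 (37.8%), with a median of 1.49. In AAV-Cre mice all 35 were higher in STR than in PFC (33.8% of all genes; median 0.99), all 35 were higher in SN than in PFC (37.7%; median 1.59), and 34 were higher in SN than in STR (39.7%; median 0.62). In bulk tissue, fewer cells of a type and less RNA per cell cannot be told apart, here and in every comparison of these genes. Mbp rose by 0.67 (SE 0.17) from PFC to STR and by 2.16 (SE 0.17) from PFC to SN on the log2 scale in Nestin-Cre mice, and by 0.96 (SE 0.11) and 1.71 (SE 0.12) in AAV-Cre mice. Its WT libraries spanned 1956, 2370.3 and 3221 cpm in PFC, 2616, 3670.1 and 6261 in STR and 8178, 12898 and 14906 in SN of Nestin-Cre mice (lowest, median and highest), and 1998, 2597 and 2808, 4073, 5219 and 6809 and 6931, 9403 and 11077 cpm in AAV-Cre mice. Every WT library of SN held more Mbp than every WT library of STR or PFC in the same model, and the PFC and STR ranges overlapped in Nestin-Cre mice alone.

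By role, transcription factors differed least between SN and PFC. Their median log2 difference was 1.33 in the Nestin-Cre model and 1.32 in the AAV-Cre model, against 2.16 and 1.62 for the 7 myelin proteins, 2.26 and 1.68 for the 10 junction and membrane proteins and 2.22 and 1.78 for the 5 enzymes of lipids and glycans. The 2 receptors, Lpar1 and Gpr37, had medians of 1.94 and 1.46, and the 6 carriers, other enzymes and stress proteins 2.15 and 1.38. Whether roles differ from each other was not tested. Nkx6-2, a homeobox factor, went against its group, with the highest difference of all 35 between STR and PFC in both models (1.73 and 1.67) and between SN and PFC in AAV-Cre mice (2.41). Ermn, a cytoskeletal protein of the oligodendrocyte, had the highest difference between SN and PFC in Nestin-Cre mice (3.02), and Sox10 the lowest (1.18). Between SN and STR the extremes were Apod, a lipid carrier (2.31), and Olig1 (0.96) in Nestin-Cre mice, and Ugt8a, which makes galactosylceramide (1.08), and Opalin, a membrane glycoprotein, in AAV-Cre mice. Opalin was the 1 gene not called there, at -0.01 (adjusted p 0.961). The 3 genes not called between STR and PFC of Nestin-Cre mice were Myrf at -0.01 (adjusted p 0.970), Sox10 at 0.14 (adjusted p 0.385) and the carbonic anhydrase Car2 at 0.20 (adjusted p 0.163). With the mouse as a replicate block 28 were called in that comparison, while each of the other 5 region counts was the same. Shares of all genes called are not given for the fits with the block, so these counts cannot be set against them. The lowest differences of the AAV-Cre model were those of Car2 between STR and PFC (0.41) and of Opalin between SN and PFC (0.93).

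A list of 35 related myelin and oligodendrocyte genes outside the set also had positive medians in these comparisons. In Nestin-Cre WT mice its median log2 differences were 0.37 for STR against PFC, 1.75 for SN against PFC and 1.48 for SN against STR, where those of all genes were 0.00, -0.03 and 0.01. In AAV-Cre WT mice they were 0.92, 1.33 and 0.59, with 0.02, 0.01 and 0.03 over all genes. Genes of oligodendrocyte precursors and differentiating cells, a list of 14, had medians of -0.30, 0.34 and 0.57 in the first model and -0.08, 0.35 and 0.34 in the second, in the same order. Whether the lists differ from the 35 genes was not tested.

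The WT mice of the models were set against each other within each region. The models differ in age, in virus injection and in the source of Cre, and these cannot be told apart. In PFC 8 of the 35 genes were higher and 9 lower in AAV-Cre than in Nestin-Cre WT mice (24.3% and 22.6% of all genes tested), with a median log2 difference of 0.00, and of -0.05 without mouse M4575. The lowest was that of the tetraspanin Tspan2, -0.63 (adjusted p 0.000314), and the highest that of Hapln2, a matrix link protein of the node of Ranvier, 0.72 (adjusted p 0.000341). In STR 18 were higher and 1 lower (32.0% and 29.9%), with a median of 0.30. Hapln2 was again highest at 1.26 (adjusted p 1.27e-05), followed by Myrf at 1.18 (adjusted p 1.20e-05) and Sox10 at 0.91 (adjusted p 4.05e-05), and Opalin was the 1 gene lower, at -0.33 (adjusted p 0.0548). In SN 0 were higher and 28 lower (30.5% and 31.9%) with the same edgeR test, and the median was -0.69. DESeq2 called 29 of the 35 in either direction, its share of all genes not being given here. Opalin had the lowest difference, -1.76 (adjusted p 3.85e-06), followed by Mal, a membrane protein of myelin, at -1.39 (adjusted p 7.16e-06). Mbp was at -0.51 (adjusted p 0.0142), and Hapln2 had the highest value, 0.28 (adjusted p 0.101). Of the 5 transcription factors in SN only Nkx6-2 was called, at -0.29 (adjusted p 0.0699), and Olig1, Olig2, Sox10 and Myrf lay between -0.13 and 0.22. Whether the model difference itself differs between regions was not tested.

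Markers of other cell types also differed between the WT mice of the models, by the same test and against the same shares of all genes. In STR the 6 choroid plexus genes were all higher in AAV-Cre mice, with a median log2 difference of 3.37, and their summed level was 51.3, 108 and 289 cpm in Nestin-Cre and 112, 239 and 8249.8 cpm in AAV-Cre WT mice (lowest, median and highest). The ranges overlapped, and Ttr was the most abundant of the 6 in both. Of the 8 genes of cortical excitatory neurons, 1 higher and 5 lower, the median was -1.38 in STR, and the sum was 1050.2, 1475 and 2162 cpm in Nestin-Cre and 674, 877 and 1178 cpm in AAV-Cre WT mice, Nrgn being the most abundant. In SN the 11 microglial markers, 0 higher and 8 lower, had a median of -0.49 and a sum of 671, 761 and 989 cpm in Nestin-Cre and 493.2, 618 and 765 cpm in AAV-Cre WT mice, and the 11 astrocyte markers, 1 higher and 6 lower, a median of -0.21 and a sum of 6926, 7582 and 9043 cpm in Nestin-Cre and 6066, 6675 and 7404 cpm in AAV-Cre WT mice, Slc1a2 being the most abundant. Both sums overlapped between the models. In PFC all 12 markers of striatal projection neurons were higher in AAV-Cre mice, with a median of 0.73 and a sum of 658, 896 and 1282 cpm in Nestin-Cre and 909.5, 1272 and 2269.6 cpm in AAV-Cre WT mice, and so were all 11 microglial markers, with a median of 0.43. The part of these cell types, and so of what each piece of tissue held, in the differences of the 35 genes was not tested.

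In PFC of Nestin-Cre mice nearly all of the 35 genes had negative fold changes in both mutant genotypes against WT, and 5 of them passed the test in HOM mice. Both mutant genotypes were tested against the same 8 WT libraries, in 1 fit of the 18 libraries of PFC. In HOM mice 5 of the 35 genes fell and 0 rose (0.250% of the 14386 genes tested were called in either direction and 0.0765% lower): Gjb1, Galnt6, Gpr37, Fa2h and Myrf. All 35 log2 fold changes were negative in HOM, with a median of -0.40 against 0.00 over all genes, of which 51.2% were negative, and 30 of the 35 had an unadjusted p under 0.05 (10.1% of all genes). In HET mice 34 of the 35 were negative, with a median of -0.37 against 0.00 and 50.4%, and 33 had an unadjusted p under 0.05 (9.72%). The quasi-likelihood test called 0 of the 35 in HET (0.00% of all genes), the lowest adjusted p being 0.114 for Mag and Myrf. DESeq2, which made more false calls than edgeR when tested on simulated data, called 14 of the 35 in HET (0.806% of all genes) and 14 in HOM (1.58%), and edgeR's likelihood ratio test 25 in HET (2.88%) and 25 in HOM (2.15%). Other choices of analysis lowered the HOM count of 5: it was 1 at an adjusted p under 0.05, 1 in a fit of WT and HOM alone and 0 when libraries of the 3 regions were fitted together, while the HET count was 9 in a fit of WT and HET alone. The counts also moved with single libraries. Shares of all genes called are not given for these choices or without these libraries. A move in the 35 therefore cannot be set against one in all genes. In HET the count of 0 became 12 without WT mouse M4575, 1 without WT mouse M4329, 1 without HET mouse M4577, and, HOM libraries being in the same fit, 4 without HOM mouse M4393 and 11 without HOM mouse M4580. In HOM the count of 5 became 8 without mouse M4393, 1 without M4568, 2 without M4569, 1 without WT mouse M4326, 3 without M4529 and 2 without M4609.

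Per library, with the lowest, median and highest of groups above 5 libraries and HOM mice in the order M4393, M4568, M4569 and M4580, the 5 genes that fell in HOM were as follows. Gjb1, the connexin of oligodendrocytes, was at 10.7, 11.8 and 13.0 cpm in WT and 7.59, 9.29 and 10.5 cpm in HET, and the 4 HOM libraries held 7.23, 8.08, 8.02 and 5.98 cpm. All HET and all HOM libraries lay below all 8 WT libraries, and mouse M4580 was lowest. Gjb1 (Entrez 14618, chrX:101376376-101385629 of GRCm38, plus strand) fell by 0.71 in HOM on the log2 scale (SE 0.098, adjusted p 0.00677, 4 of 4 libraries below the WT mean), and its HET value was -0.38 (adjusted p 0.127). Galnt6, which starts O-linked sugar chains on proteins, was at 13.2, 15.8 and 20.8 cpm in WT and 10.8, 12.6 and 15.2 cpm in HET, and the 4 HOM libraries held 11.9, 10.1, 14.0 and 8.14 cpm. WT and HOM overlapped through mouse M4569, and the HET range overlapped that of WT. Galnt6 fell by 0.61 in HOM (SE 0.14, adjusted p 0.0952, 4 of 4), with -0.37 (adjusted p 0.282) in HET. Fa2h, which hydroxylates the fatty acids of myelin galactolipids, was at 30.7, 35.0 and 40.8 cpm in WT and 24.4, 28.8 and 31.0 cpm in HET, and the 4 HOM libraries held 27.6, 28.8, 27.6 and 21.4 cpm. All 4 HOM libraries lay below the lowest WT library, and HET reached just above it. Fa2h fell by 0.43 in HOM (SE 0.087, adjusted p 0.0574, 4 of 4), with -0.32 (adjusted p 0.144) in HET. The Gjb1 call held without any single PFC library, and over 26 alternatives its adjusted p ran from 2.46e-06 to 0.774, the highest in a fit of all regions of the model. The Galnt6 call was lost without any 1 of HOM mice M4393, M4568 and M4580, WT mice M4326, M4394, M4529, M4575 and M4609 or HET mice M4564, M4566 and M4578 (adjusted p from 0.00128 to 1.00 over the alternatives). That of Fa2h was lost without HOM mouse M4568 or M4569 or WT mouse M4326 or M4609 (from 0.00221 to 1.00).

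Gpr37, a G protein-coupled receptor of the oligodendrocyte surface, was at 48.9, 58.3 and 67.7 cpm in WT and 43.1, 47.2 and 56.1 cpm in HET, and the 4 HOM libraries held 51.2, 40.0, 46.2 and 38.2 cpm. Mouse M4393 was the 1 HOM library inside the WT range, and the HET range reached into it as well. Gpr37 fell by 0.44 in HOM (SE 0.091, adjusted p 0.0574, 4 of 4), with -0.31 (adjusted p 0.159) in HET. Myrf, the membrane-anchored transcription factor that switches on myelin genes, was at 53.1, 57.5 and 68.0 cpm in WT and 41.9, 45.1 and 50.6 cpm in HET, and the 4 HOM libraries held 51.9, 44.4, 45.5 and 41.5 cpm. No HET or HOM library reached the lowest WT library, and mouse M4393 came closest among HOM. Myrf fell by 0.38 in HOM (SE 0.075, adjusted p 0.0574, 4 of 4), with -0.37 (adjusted p 0.114) in HET. The calls of Gpr37 and Myrf were lost without HOM mouse M4568 or M4569 or WT mouse M4326, and that of Gpr37 also without WT mouse M4529 or M4609, the adjusted p running from 0.00122 to 1.00 for Gpr37 and from 0.00199 to 1.00 for Myrf over 26 alternatives. Groups without overlap, mutant below WT, were found for 3 of the 35 genes in HET (Gjb1, Mag and Myrf; 0.125% of all genes) and for 3 in HOM (Fa2h, Gjb1 and Myrf; 0.236% of all genes).

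Among the myelin proteins none was called in either genotype by the quasi-likelihood test, and all 7 were negative in both. Mbp, which binds the cytoplasmic faces of compact myelin, was at 1956, 2370.3 and 3221 cpm in WT and 1697, 1948 and 2114 cpm in HET, and the 4 HOM libraries held 2251, 1891, 1839.5 and 1428 cpm. Mag, an adhesion molecule that faces the axon, was at 153, 181 and 239 cpm in WT and 109, 133 and 143 cpm in HET, and the 4 HOM libraries held 176, 145, 146 and 104 cpm. Mobp, a basic protein of compact myelin, was at 158, 202 and 293 cpm in WT and 142, 162 and 169 cpm in HET, and the 4 HOM libraries held 175, 148, 167 and 114 cpm. For all 3 genes WT mouse M4394 was the highest and WT mouse M4575 the lowest WT library, and mouse M4580 was the lowest HOM library, with mouse M4393 inside the WT range. For Mobp, HOM mouse M4569 was inside the WT range as well. The HET libraries of Mag lay below all WT libraries, and those of Mbp and Mobp overlapped them. Mbp had log2 fold changes of -0.35 (adjusted p 0.270) in HET and -0.40 (adjusted p 0.201) in HOM, Mag -0.52 (adjusted p 0.114) and -0.40 (adjusted p 0.201), and Mobp -0.38 (adjusted p 0.275) and -0.46 (adjusted p 0.176). Cnp, the cyclic nucleotide phosphodiesterase of non-compact myelin, was at 237, 315 and 402 cpm in WT and 219, 238 and 253 cpm in HET, and the 4 HOM libraries held 295, 243, 247 and 185 cpm. Its highest and lowest WT and HOM mice were those of the 3 genes before, with M4580 alone of HOM below the WT range, and its fold changes were -0.45 (adjusted p 0.127) and -0.43 (adjusted p 0.163). The lowest log2 fold change of the 35 in HET was that of Mal, -0.54 (adjusted p 0.147), with 6 of 6 libraries below the WT mean.

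Ugt8a, the galactosyltransferase that makes galactosylceramide, was at 57.0, 62.7 and 75.7 cpm in WT and 40.1, 43.9 and 59.3 cpm in HET, and the 4 HOM libraries held 60.8, 43.3, 48.7 and 39.3 cpm. Its HET and HOM ranges both reached into the WT range, through HET mouse M4578 and HOM mouse M4393, and its log2 fold changes were -0.45 (adjusted p 0.127) and -0.44 (adjusted p 0.162). Of the 5 enzymes of lipids and glycans, Fa2h and Galnt6 were the 2 called in HOM, and the group's median log2 fold change was -0.32 in HET and -0.43 in HOM. Sox10, which acts throughout the lineage, was at 30.1, 37.4 and 50.6 cpm in WT and 28.1, 32.7 and 37.3 cpm in HET, and the 4 HOM libraries held 33.8, 36.5, 27.3 and 29.4 cpm. Olig2, needed for the lineage to form, was at 15.4, 19.98 and 23.4 cpm in WT and 14.7, 16.9 and 19.6 cpm in HET, and the 4 HOM libraries held 16.4, 20.01, 12.7 and 13.3 cpm. In both genes the mutant ranges overlapped that of WT, and HOM mouse M4568 lay near the WT median. Sox10 had fold changes of -0.26 (adjusted p 0.394) and -0.32 (adjusted p 0.316), and Olig2 -0.26 (adjusted p 0.420) and -0.40 (adjusted p 0.242). The least negative of the 35 were Apod in HET, 0.02 (adjusted p 0.964), with 3 of 6 libraries below the WT mean, and Ninj2 in HOM, -0.07 (adjusted p 0.970), with 3 of 4.

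**Figure D1:**
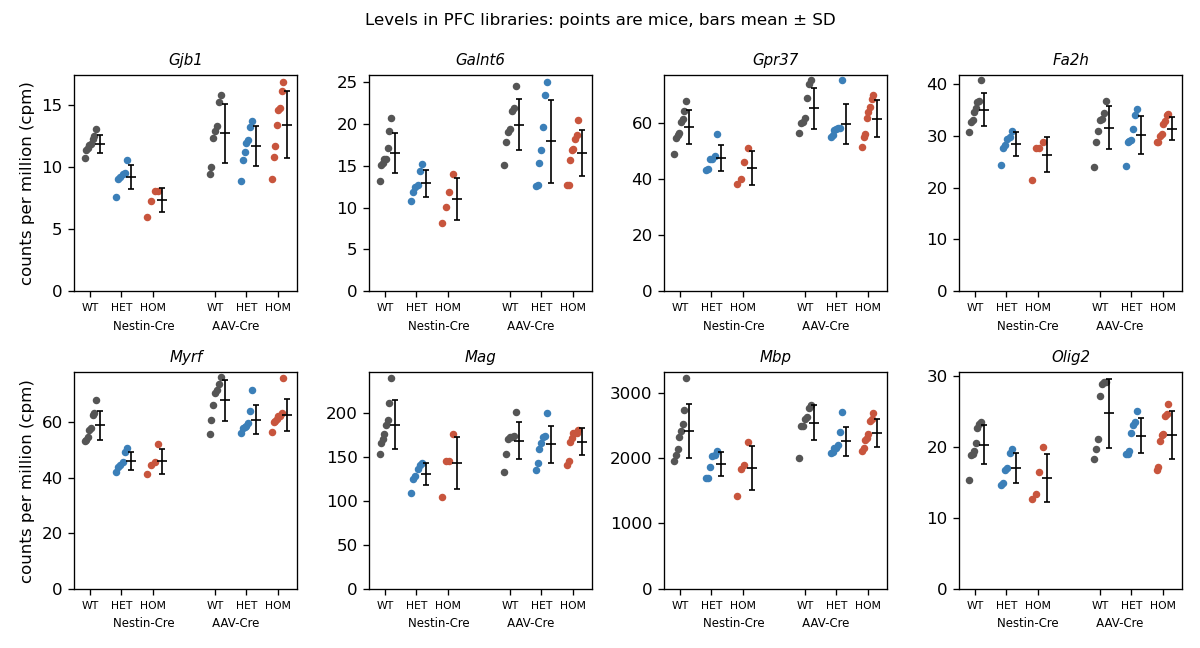
Levels in cpm (y axis, from 0) of 8 of the genes in each PFC library, for WT, HET and HOM mice of the Nestin-Cre and AAV-Cre models (x axis), with points for mice and bars for mean ± SD beside them. In the Nestin-Cre groups the 4 HOM libraries of Gjb1 lie at 7.23, 8.08, 8.02 and 5.98 cpm, all below the lowest WT library at 10.7 cpm, while the AAV-Cre groups overlap in all 8 genes.

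The mean over the 35 genes of log2(cpm + 0.5), relative to the WT mean, placed each library as a whole. The 8 WT libraries ran from -0.27 to 0.26 (SD 0.174), the 6 HET libraries from -0.45 to -0.24 and the 4 HOM libraries from -0.66 to -0.12. All 6 HET and all 4 HOM libraries lay below the WT mean, and 5 HET and 3 HOM libraries lay below the lowest WT library, which was that of mouse M4575. HOM mouse M4393 was the highest and mouse M4580 the lowest of the mutants.

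Fold changes were mostly negative in some other lists in Nestin-Cre PFC as well. Of the 35 related myelin and oligodendrocyte genes outside the set, 34 were negative in HET and 33 in HOM, with medians of -0.23 and -0.22 and 21 and 18 at an unadjusted p under 0.05. Of these 35, 0 were called in HET and 1 fell in HOM: Plekhh1, at -0.47 (adjusted p 0.0235). Their summed level was 4901, 5341 and 6068 cpm in WT (lowest, median and highest), 4568.5, 4733 and 5329.7 in HET and 5522, 4435, 4624 and 4265 in the HOM mice. All 12 markers of striatal projection neurons were negative as well, with medians of -0.69 in HET and -0.60 in HOM, 0 called, and 12 and 10 at an unadjusted p under 0.05. Their summed level was 658, 896 and 1282 cpm in WT, 489.9, 612 and 758 in HET and 689, 542, 813 and 474 in the HOM mice in the same order. The most abundant of the 12 was Adcy5 (means of 191, 162 and 156 cpm), the least abundant Gpr6 (2.87, 1.54 and 1.498 cpm), and 0 of the 12 had a group mean under 1 cpm. WT mouse M4394, the highest in most myelin genes, was also highest in this sum. The part of these striatal markers in the result for the 35 genes was not tested.

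The other cell type lists varied in size and direction. Markers of oligodendrocyte precursors and differentiating cells had medians of -0.06 in HET (8 of 14 negative) and -0.11 in HOM (12 of 14), and their summed level was 536, 657 and 729 cpm in WT, 548, 693 and 758 in HET and 539.6, 569 and 711 in HOM. Medians were 0.12 and -0.03 for astrocytes (3 of 11 and 7 of 11 negative), -0.14 and -0.03 for microglia (9 of 11 and 7 of 11) and 0.07 and -0.06 for endothelial and mural cells (4 of 12 and 11 of 12). They were -0.04 and -0.02 for neurons (9 of 10 and 7 of 10), -0.02 and -0.01 for cortical excitatory neurons (5 of 8 and 4 of 8) and -0.08 and -0.35 for dopamine neurons (5 of 6 and 6 of 6). Of the dopamine neuron list of 8 genes, 6 could be tested. Of the 6 choroid plexus genes 4 could be tested, with medians of 0.22 and -0.42, and of the 5 Schwann cell genes 2, with medians of 0.26 and 0.52. Of all these lists the 1 gene called was Drp2 of the Schwann cell list in HOM, at 0.21 (adjusted p 0.0817), while Pmp2 of the same list was at 0 cpm in every group of Nestin-Cre PFC.

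**Figure D2:**
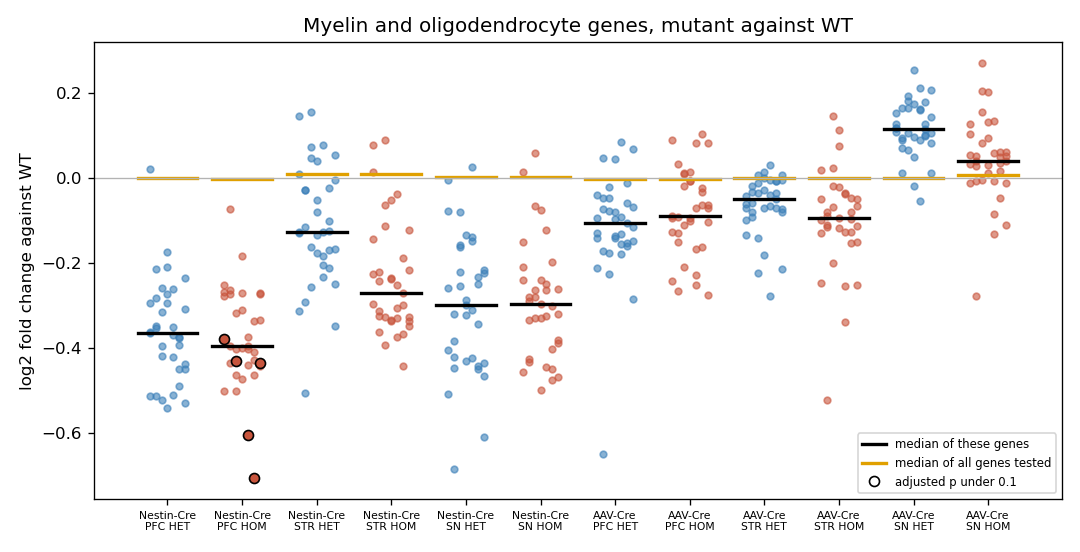
Log2 fold change against WT (y axis) of the 35 genes, 1 point each, in the 12 comparisons of a mutant genotype with WT (x axis), with a black line at their median, an orange line at the median of all genes tested and outlined points for genes with an adjusted p under 0.1. The points of Nestin-Cre PFC lie almost wholly below 0, with medians of -0.37 in HET and -0.40 in HOM, and those of AAV-Cre SN lie mostly above it, with medians of 0.12 and 0.04.

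In STR of Nestin-Cre mice most of the 35 genes had negative fold changes and wide spread between mice. In HET 27 of 35 were negative, with a median of -0.13 against 0.01 over all genes, and in HOM 32, with a median of -0.27 against 0.01. With the quasi-likelihood test 0 of the 35 were called in HET and 0 in HOM (0.00% of all genes in both). Unadjusted p was under 0.05 for 0 of the 35 in HET (17.3% of all genes) and for 3 in HOM (4.62%), namely Opalin, Bcas1 and Qdpr. DESeq2 called 0 of the 35 in HET (3.69% of all genes) and 0 in HOM (0.00690%), and the likelihood ratio test 1 in each. That test's shares of all genes are not given here. Levels are again the lowest, median and highest library. Mbp was at 2616, 3670.1 and 6261 cpm in WT, 2887, 3095 and 5203 cpm in HET and 2226, 3047 and 3953 cpm in HOM. Mag was at 227, 272 and 424 cpm in WT, 190.3, 252 and 365 cpm in HET and 149, 244 and 284 cpm in HOM. Mobp was at 264, 331 and 566 cpm in WT, 247, 323 and 481 cpm in HET and 189, 293 and 383 cpm in HOM. The groups overlapped throughout, with WT mouse M4394 and HET mouse M4566 the highest of their groups in all 3 genes and HOM mouse M4569 the lowest of HOM. Cnp was at 414, 518 and 716 cpm in WT, 391, 461 and 662 cpm in HET and 295, 444 and 551 cpm in HOM. Ugt8a was at 74.5, 90.1 and 135 cpm in WT, 76.7, 95.9 and 149.6 cpm in HET and 49.2, 89.7 and 109 cpm in HOM. Fa2h was at 38.8, 52.8 and 71.3 cpm in WT, 40.8, 56.5 and 76.9 cpm in HET and 31.4, 52.3 and 64.2 cpm in HOM. Here too the groups overlapped, with mouse M4569 the lowest HOM library.

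Galnt6, Gjb1 and Gpr37, called in PFC, overlapped between genotypes in STR. Galnt6 was at 18.4, 22.7 and 36.3 cpm in WT, 14.1, 25.0 and 31.2 cpm in HET and 14.1, 21.8 and 26.7 cpm in HOM. Gjb1 was at 12.7, 18.3 and 21.3 cpm in WT, 12.3, 17.9 and 23.4 cpm in HET and 10.3, 15.3 and 21.5 cpm in HOM. Gpr37 was at 58.4, 75.6 and 99.6 cpm in WT, 57.7, 86.3 and 107 cpm in HET and 38.1, 74.6 and 101 cpm in HOM. For Gjb1 the log2 fold changes in STR were -0.02 (adjusted p 0.950) in HET and -0.19 (adjusted p 0.794) in HOM. Olig2 was at 19.6, 24.9 and 30.3 cpm in WT, 21.7, 26.7 and 37.0 cpm in HET and 15.1, 25.4 and 33.2 cpm in HOM. Sox10 was at 30.02, 44.7 and 60.0 cpm in WT, 30.1, 44.5 and 71.1 cpm in HET and 28.3, 45.0 and 65.2 cpm in HOM. Myrf was at 42.3, 57.7 and 83.5 cpm in WT, 36.4, 66.8 and 94.6 cpm in HET and 31.7, 61.0 and 96.6 cpm in HOM. The transcription factors had a median of 0.08 in HET, with 5 of 5 positive, and -0.04 in HOM, against -0.16 and -0.34 for the myelin proteins. Mbp had fold changes of -0.23 (adjusted p 0.499) in HET and -0.37 (adjusted p 0.784) in HOM. The lowest and highest of the 35 were Ninj2, -0.51 (adjusted p 0.350), and Nkx6-2, 0.16 (adjusted p 0.687), in HET, and Opalin, -0.44 (adjusted p 0.784), and Sox10, 0.09 (adjusted p 0.903), in HOM. In STR of HET mice the 6 choroid plexus genes were all positive, with a median of 2.67, and their summed level ran from 41.1 to 18963 cpm with a median of 89.8, Ttr being the most abundant. All 12 striatal projection neuron markers were negative in HET (median -0.42) and 7 of 8 cortical excitatory markers (median -1.15). Their part in the values of the 35 genes was not tested.

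In SN of Nestin-Cre mice 34 of the 35 genes were negative in HET and 33 in HOM, with a median of -0.30 in each against 0.00 over all genes. The quasi-likelihood test called 0 of the 35 in HET and 0 in HOM (0.00% of all genes in both). Unadjusted p was under 0.05 for 11 of the 35 in HET (8.99% of all genes) and 9 in HOM (4.09%). The lowest unadjusted p were those of Ninj2, Tspan2 and Cldn11 in HET and, against the same WT libraries, of Tspan2, Cldn11 and Cnp in HOM. DESeq2 called 0 of the 35 in HET (0.0336% of all genes) and 0 in HOM (0.00672%), and the likelihood ratio test 9 and 2. That test's shares of all genes are not given here, so its counts cannot be set against them. Mbp was at 8178, 12898 and 14906 cpm in WT, 8196, 10695 and 14468 cpm in HET and 7949, 11373 and 11759 cpm in HOM. Mag was at 591, 954 and 1041 cpm in WT, 659.6, 681 and 1031 cpm in HET and 611, 704 and 918 cpm in HOM. Mobp was at 818, 1095 and 1371 cpm in WT, 814, 956 and 1024 cpm in HET and 695, 903 and 1071 cpm in HOM. WT mouse M4394, the highest WT library in PFC and STR, was the lowest WT library in SN for all 3 genes, and the groups overlapped. Cnp was at 1001, 1495 and 1699 cpm in WT, 922, 1147 and 1242 cpm in HET and 916, 1079.6 and 1361 cpm in HOM. Ugt8a was at 343, 461 and 632 cpm in WT, 244, 322 and 509.9 cpm in HET and 206, 385 and 443 cpm in HOM. Fa2h was at 113, 202 and 233 cpm in WT, 138, 154 and 190.0 cpm in HET and 118, 152 and 176 cpm in HOM. WT mouse M4394 was again the lowest of WT. The groups overlapped, although the mutant medians lay below the WT median in all 3.

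Galnt6 was at 46.8, 77.4 and 80.4 cpm in WT, 47.1, 63.3 and 80.5 cpm in HET and 35.2, 62.8 and 75.5 cpm in HOM. Gjb1 was at 50.1, 81.2 and 105 cpm in WT, 50.6, 67.0 and 90.6 cpm in HET and 54.4, 68.5 and 92.7 cpm in HOM. Gpr37 was at 164, 269 and 298 cpm in WT, 189, 214 and 249 cpm in HET and 175, 202 and 233 cpm in HOM. These ranges overlapped between genotypes, and the Gjb1 fold changes were -0.25 (adjusted p 0.557) in HET and -0.20 (adjusted p 0.892) in HOM. Olig2 was at 43.1, 56.3 and 62.7 cpm in WT, 39.9, 53.9 and 70.1 cpm in HET and 41.5, 51.2 and 66.0 cpm in HOM. Sox10 was at 74.4, 99.6 and 130.3 cpm in WT, 75.7, 87.5 and 135 cpm in HET and 72.6, 102 and 115 cpm in HOM. Myrf was at 119, 181 and 195 cpm in WT, 119, 153 and 236 cpm in HET and 120.4, 152 and 195 cpm in HOM. The transcription factors lay near 0 in SN, with medians of -0.08 in HET and -0.08 in HOM, and Myrf had fold changes of -0.01 (adjusted p 0.990) in HET and -0.15 (adjusted p 0.902) in HOM. The junction and membrane proteins had medians of -0.41 and -0.38, the myelin proteins -0.26 and -0.30, and Mbp -0.15 (adjusted p 0.681) in HET and -0.25 (adjusted p 0.892) in HOM. The extremes were Ninj2, -0.69 (adjusted p 0.518), and Olig2, 0.03 (adjusted p 0.937), in HET, and Mal, -0.50 (adjusted p 0.892), and Nkx6-2, 0.06 (adjusted p 0.942), in HOM. All 11 microglial markers were negative in both genotypes, with medians of -0.45 and -0.28, and all 12 striatal projection neuron markers were positive in HET, with a median of 1.13. The summed microglial level was 671, 761 and 989 cpm in WT, 469, 653 and 745 in HET and 469.8, 722 and 799.9 in HOM. The part of either list in the values of the 35 genes was not tested.

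After striatal AAV-Cre injection of adult mice the fold changes of the 35 genes in PFC had medians just below 0. In HET 31 of 35 were negative, with a median of -0.11, and in HOM 27, with a median of -0.09, against 0.00 over all genes in both. Without WT mouse M3588 the median in HOM was -0.05. The quasi-likelihood test called 0 of the 35 in HET (0.00% of all genes) and 0 in HOM (0.0137%), with an unadjusted p under 0.05 for 6 in HET (12.3% of all genes) and 5 in HOM (14.2%). DESeq2 called 0 of the 35 in HET (0.0410% of all genes) and 0 in HOM (1.26%), its own filter on mean counts giving 24 of the 35 no adjusted p, and the likelihood ratio test called 1 and 3. For the latter test the shares of all genes are not given here. Mbp was at 1998, 2597 and 2808 cpm in WT, 2080.0, 2156 and 2711 cpm in HET and 2109, 2335 and 2696 cpm in HOM. Mag was at 133, 172 and 201 cpm in WT, 136, 165 and 199.5 cpm in HET and 140.3, 174 and 180.0 cpm in HOM. Mobp was at 171, 221 and 272 cpm in WT, 171, 190.0 and 236 cpm in HET and 169, 199 and 218 cpm in HOM. The groups overlapped, and WT mouse M3677 was the lowest WT library in each. Cnp was at 231, 278 and 315 cpm in WT, 233, 257 and 328 cpm in HET and 248, 272 and 289 cpm in HOM. Ugt8a was at 38.1, 45.2 and 49.2 cpm in WT, 34.4, 48.5 and 56.1 cpm in HET and 41.4, 46.7 and 51.6 cpm in HOM. Fa2h was at 24.0, 33.0 and 36.8 cpm in WT, 24.2, 29.1 and 35.1 cpm in HET and 28.8, 31.3 and 34.2 cpm in HOM. No group stood apart in these enzymes.

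Galnt6 was at 15.1, 19.4 and 24.5 cpm in WT, 12.6, 16.9 and 25.1 cpm in HET and 12.7, 17.0 and 20.5 cpm in HOM. Gjb1 was at 9.39, 12.8 and 15.8 cpm in WT, 8.90, 11.9 and 13.7 cpm in HET and 9.04, 13.9 and 16.8 cpm in HOM. Gpr37 was at 56.6, 61.9 and 75.3 cpm in WT, 54.9, 58.0 and 75.3 cpm in HET and 51.3, 62.8 and 69.9 cpm in HOM. All ranges overlapped, and the Gjb1 fold changes were -0.11 (adjusted p 0.762) in HET and 0.10 (adjusted p 0.746) in HOM. Olig2 was at 18.3, 27.1 and 29.1 cpm in WT, 19.0, 22.0 and 25.0 cpm in HET and 16.7, 21.7 and 26.0 cpm in HOM. Sox10 was at 35.5, 49.8 and 56.7 cpm in WT, 36.4, 43.3 and 48.8 cpm in HET and 36.1, 47.2 and 60.5 cpm in HOM. Myrf was at 55.9, 70.3 and 76.1 cpm in WT, 56.2, 58.5 and 71.5 cpm in HET and 56.3, 61.6 and 75.9 cpm in HOM. WT mouse M3677 was the lowest WT library of all 3 factors, and the genotypes overlapped. Mbp had fold changes of -0.16 (adjusted p 0.364) in HET and -0.07 (adjusted p 0.642) in HOM, and Myrf -0.14 (adjusted p 0.409) in HET and -0.09 (adjusted p 0.537) in HOM. The extremes were Ninj2, -0.65 (adjusted p 0.340), and Cldn11, a tight junction protein of myelin, 0.08 (adjusted p 0.682), in HET, and Cryab, a small heat shock protein, -0.28 (adjusted p 0.601), and Gjb1 in HOM. All 11 astrocyte and all 11 microglial markers were negative in both genotypes, with medians of -0.19 and -0.18 and of -0.26 and -0.22, with 0 called. The related myelin list had medians of -0.07 in HET (26 of 35 negative) and 0.02 in HOM (17 of 35). Whether the glial lists bear on the 35 genes was not tested.

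In STR, the injected region, 30 of the 35 genes were negative in each genotype, with medians of -0.05 in HET and -0.09 in HOM against 0.00 over all genes. The quasi-likelihood test called 0 of the 35 in either (0.00% of all genes in both), unadjusted p was under 0.05 for 1 gene, Olig2, in HET (1.71% of all genes) and for 4 in HOM (4.58%), namely Ninj2, Galnt6, Trf and Apod. DESeq2 called 0 of the 35 in HET (0.00% of all genes) and 0 in HOM (0.0341%), and the likelihood ratio test 0 and 4. That test's shares of all genes are not given here. Mbp was at 4073, 5219 and 6809 cpm in WT, 4739.9, 5075 and 5847 cpm in HET and 4066, 5249 and 5530.4 cpm in HOM. Mag was at 284, 370.1 and 449.8 cpm in WT, 326, 351 and 419 cpm in HET and 289, 347 and 411 cpm in HOM. Mobp was at 395, 476 and 671 cpm in WT, 441, 491 and 550.2 cpm in HET and 357, 461 and 515 cpm in HOM. Genotypes overlapped, and WT mouse M3649 held the highest value of WT and HOM mouse M3607 the lowest of HOM in all 3. Cnp was at 474, 617 and 739.7 cpm in WT, 538, 586 and 611 cpm in HET and 499.8, 546 and 659.6 cpm in HOM. Ugt8a was at 78.0, 106 and 118 cpm in WT, 78.5, 89.6 and 111 cpm in HET and 85.0, 93.6 and 104 cpm in HOM. Fa2h was at 54.6, 68.9 and 81.5 cpm in WT, 62.7, 67.0 and 71.3 cpm in HET and 57.6, 70.4 and 78.8 cpm in HOM. In all 3 enzymes the HET range lay within the WT range.

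Galnt6 was at 34.5, 44.0 and 54.4 cpm in WT, 28.0, 40.7 and 54.6 cpm in HET and 26.3, 32.4 and 45.7 cpm in HOM. Gjb1 was at 22.8, 30.6 and 35.8 cpm in WT, 24.7, 27.3 and 33.4 cpm in HET and 20.2, 28.7 and 36.6 cpm in HOM. Gpr37 was at 108, 138 and 159 cpm in WT, 113, 132 and 134 cpm in HET and 105, 123 and 130.0 cpm in HOM. Each range overlapped the others, the HOM median of Galnt6 being below the lowest WT library. Olig2 was at 30.4, 37.2 and 46.4 cpm in WT, 26.5, 32.2 and 33.9 cpm in HET and 29.2, 36.6 and 39.7 cpm in HOM. Sox10 was at 72.3, 89.3 and 94.7 cpm in WT, 67.9, 75.9 and 87.8 cpm in HET and 70.1, 90.6 and 93.1 cpm in HOM. Myrf was at 113, 143 and 159 cpm in WT, 119.9, 135 and 152 cpm in HET and 110.2, 130.0 and 145 cpm in HOM. The HET libraries of Olig2 lay in the lower part of the WT range or below it, and the other ranges overlapped. Fold changes of Mbp were 0.03 (adjusted p 1.00) in HET and -0.04 (adjusted p 1.00) in HOM, and those of Olig2 -0.28 (adjusted p 1.00) in HET and -0.13 (adjusted p 1.00) in HOM. Olig2 was the lowest and Mbp the highest of the 35 in HET, and Ninj2, -0.52 (adjusted p 1.00), the lowest and Nkx6-2, 0.15 (adjusted p 1.00), the highest in HOM. All 11 microglial markers were negative in HOM, with a median of -0.20 and 0 called, and their part was not tested.

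In SN of AAV-Cre mice most fold changes were positive: 2 of the 35 genes were negative in HET and 10 in HOM, with medians of 0.12 and 0.04 against 0.00 and 0.01 over all genes. The quasi-likelihood test called 0 of the 35 in both (0.00% of all genes in both), with an unadjusted p under 0.05 for 1 gene, Tmem125, in HET (4.69% of all genes) and for 0 in HOM (7.49%). DESeq2 called 0 of the 35 in HET (0.00675% of all genes) and 0 in HOM (0.0675%), and the likelihood ratio test 0 and 0. Mbp was at 6931, 9403 and 11077 cpm in WT, 8161, 10101 and 12126 cpm in HET and 8098, 9407 and 11857 cpm in HOM. Mag was at 487, 675 and 774 cpm in WT, 603, 722 and 889 cpm in HET and 591, 694 and 778 cpm in HOM. Mobp was at 564, 779 and 827 cpm in WT, 707, 785 and 1003 cpm in HET and 566, 753 and 925 cpm in HOM. The groups overlapped in all 3, and the HET medians lay above those of WT. Cnp was at 689, 898 and 1017 cpm in WT, 785, 938 and 1080.1 cpm in HET and 717, 896 and 1008 cpm in HOM. Ugt8a was at 155, 223 and 253 cpm in WT, 187, 215 and 285 cpm in HET and 177, 211 and 274 cpm in HOM. Fa2h was at 90.6, 122 and 134 cpm in WT, 104, 124 and 160.2 cpm in HET and 110.4, 132 and 163 cpm in HOM. These enzymes overlapped across genotypes as well.

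Galnt6 was at 48.6, 57.9 and 85.8 cpm in WT, 55.7, 60.9 and 94.8 cpm in HET and 46.7, 55.9 and 68.6 cpm in HOM. Gjb1 was at 45.0, 61.8 and 74.0 cpm in WT, 56.0, 62.4 and 79.7 cpm in HET and 51.7, 61.7 and 85.7 cpm in HOM. Gpr37 was at 173, 220.4 and 241 cpm in WT, 187, 232 and 256 cpm in HET and 185, 215 and 258 cpm in HOM. The genotypes overlapped, with HET mouse M3652 high in Galnt6. Olig2 was at 43.0, 60.6 and 71.1 cpm in WT, 43.5, 53.2 and 72.1 cpm in HET and 40.0, 57.0 and 69.0 cpm in HOM. Sox10 was at 87.9, 119 and 140.0 cpm in WT, 102, 121 and 159.7 cpm in HET and 104, 127 and 171 cpm in HOM. Myrf was at 154, 215 and 229 cpm in WT, 176, 215 and 262 cpm in HET and 167, 215 and 257 cpm in HOM. The genotypes overlapped in each factor, with WT mouse M3587 the lowest of WT. Mbp had fold changes of 0.21 (adjusted p 0.946) in HET and 0.13 (adjusted p 0.777) in HOM. The extremes were Olig2, -0.05 (adjusted p 0.984), and Tmem125, 0.25 (adjusted p 0.946), in HET, and Ninj2, -0.28 (adjusted p 0.841), and Nkx6-2, 0.27 (adjusted p 0.703), in HOM. Of the striatal projection neuron markers 11 of 12 were negative in HET and 12 of 12 in HOM (medians -0.50 and -0.51), and the 5 choroid plexus genes tested had a median of 3.14 in HET, their summed level running from 31.2 to 21195 cpm. Their part in the values of the 35 genes was not tested.

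Whether a genotype effect on these genes differed between regions was asked with an interaction term, fitted to all libraries of a model at once and judged by edgeR's quasi-likelihood test. In Nestin-Cre mice 0 of the 35 passed for PFC against STR in HET (0.00% of all genes) and HOM (0.00%), or for PFC against SN in HET (0.0130%) and HOM (0.00%). Unadjusted p was under 0.05 for 2 of the 35 in HET (5.30% of all genes) and 1 in HOM (2.19%) against STR, and for 1 in HET (4.42%) and 1 in HOM (2.02%) against SN. Gjb1 was the gene in both HOM contrasts, with differences of -0.53 (SE 0.25, adjusted p 1.00) and -0.52 (SE 0.25, adjusted p 1.00), which share its PFC libraries. The 2 in HET against STR were Nkx6-2, -0.58 (adjusted p 0.911), and Myrf, -0.52 (adjusted p 0.921), and the 1 against SN was Apod, 0.51 (adjusted p 0.909). The medians of the 35 differences were -0.26, -0.10, -0.10 and -0.08 in the order HET and HOM against STR, HET and HOM against SN. With the mouse as a replicate block they were -0.38, -0.22, -0.22 and -0.16, and without mouse M4575 -0.28, -0.18, -0.13 and -0.13. So the effects in PFC were not shown to differ from those in STR or SN. In AAV-Cre mice 0 of the 35 passed against STR in HET (0.00% of all genes) and HOM (0.00%), or against SN in HET (0.0194%) and HOM (0.188%). Unadjusted p was under 0.05 for 0 in HET (4.82% of all genes) and 0 in HOM (4.61%) against STR, and for 7 in HET (14.0%) and 0 in HOM (14.4%) against SN, with Mbp lowest in p at -0.36 (adjusted p 0.253). Their medians were -0.05, 0.02, -0.21 and -0.11, and with the mouse as a block -0.06, 0.03, -0.22 and -0.12. No other tool was run on these interactions.

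Between the models the effect in PFC did differ for some of the genes, in 1 fit of all PFC libraries. For HET 4 of the 35 had a lower effect in Nestin-Cre than in AAV-Cre mice (0.203% of all genes were called lower), and for HOM 6 (0.996%). The median difference of the 35 was -0.24 for HET and -0.30 for HOM. Over 20 alternatives it ran from -0.27 to -0.19 for HET, and for HOM from -0.38 without mouse M4393 to -0.19 without M4580. In HOM the Gjb1 effect was lower by a log2 difference of -0.82 (SE 0.17, adjusted p 0.0118), followed by Ermn at -0.60 (adjusted p 0.0189), Ugt8a at -0.53 (adjusted p 0.0437), Fa2h at -0.45 (adjusted p 0.0463), Cnp at -0.41 (adjusted p 0.0867) and Gpr37 at -0.38 (adjusted p 0.0978). In HET the genes were Cldn11 at -0.60 (adjusted p 0.0843), Mal at -0.59 (adjusted p 0.0888), Ugt8a at -0.52 (adjusted p 0.0843) and Mag at -0.50 (adjusted p 0.0995). Age, virus and the timing and place of Cre differ between the models and cannot be told apart. These counts also rest on single libraries, each Nestin-Cre PFC library having been left out in turn after the data were seen. The shares of all genes called in those fits are not given here. The HET count became 0 without any 1 of the 6 HET libraries or of WT mice M4326, M4394, M4396, M4529 and M4609, and Mag was also lost without M4568, M4569 or M4612. The HOM count became 12 without mouse M4393 and 3 without M4568 or M4580. Over 20 alternatives the adjusted p in HOM ran from 0.0108 to 0.0358 for Gjb1 and from 0.00455 to 0.0998 for Ermn, both called in each. It ran from 0.0156 to 0.151 for Ugt8a, lost without M4568, and from 0.0401 to 0.119 for Fa2h, lost without M4580. It ran from 0.0351 to 0.204 for Cnp, lost without any 1 of M4568, M4569, M4580 and WT mice M4326, M4394, M4396, M4529 and M4609, and from 0.0569 to 0.292 for Gpr37, called when M4393, M4575, M4577 or M4612 was left out and lost without any 1 of the 14 other libraries.

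Within groups the 35 genes tended to be high or low together in a library. In 26 of the 121 libraries at least 30 of the 35 lay above their own group's mean, and in 25 at most 5 did, 51 libraries in all. No such count is given for other sets of genes, so whether the 35 stand out in this was not tested. The 51 libraries were 14 of 22 in AAV-Cre SN, 10 of 21 in AAV-Cre STR and 3 of 22 in AAV-Cre PFC, and 8 of 19, 11 of 19 and 5 of 18 in SN, STR and PFC of Nestin-Cre mice. The median coefficient of variation between mice of a group over the 35 genes ran from 11.6% in AAV-Cre PFC to 23.9% in Nestin-Cre STR. Car2 varied least, with a mean of 13.1% over models and regions, and Cryab most, with 34.2%, followed by Ninj2 with 30.2%. Ninj2 had the fewest reads, 6 to 250 counts per library, and Mbp had 20529 to 308565.

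Mbp, the most abundant member, was compared between regions of the same mouse, as log2(cpm + 0.5) with genotype group means removed, in a family of 12 coefficients. Permutation tests with 100000 resamples were two-sided. In Nestin-Cre mice PFC and STR went together over 16 mice (Pearson r = 0.713, permutation p = 0.00196, adjusted p 0.0118; Spearman rho = 0.597, permutation p = 0.0167, adjusted p 0.0401). PFC and SN went in opposite directions over 16 mice (r = -0.653, permutation p = 0.00568, adjusted p 0.0170; rho = -0.512, permutation p = 0.0439, adjusted p 0.0879). Without the 2 mice farthest from the PFC median, r was 0.574 (p adjusted over the 6 region pairs alone 0.0936) for STR and -0.498 (0.141) for SN, the first passing at 0.1 but not at 0.05 and the second at neither. Mouse M4394 was the highest WT mouse in PFC and STR and the lowest in SN. STR and SN of Nestin-Cre mice gave r = -0.298 over 18 mice (permutation p = 0.231, adjusted p 0.396) and rho = -0.0423 (permutation p = 0.869, adjusted p 0.948), and without the 2 mice farthest from the STR median r was 0.139. Without mouse M4575, whose labels differ, the 3 values of r were 0.751, -0.662 and -0.296, an alternative chosen after seeing the data.

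In AAV-Cre mice it was STR and SN that went together over 21 mice, with r = 0.636 (permutation p = 0.00194, adjusted p 0.0118) and rho = 0.630 (permutation p = 0.00307, adjusted p 0.0123). Without the 2 mice farthest from the STR median r was 0.643 (p adjusted over the 6 region pairs alone 0.0210). PFC gave r = 0.0027 with STR over 21 mice (permutation p = 0.991, adjusted p 0.991; rho = -0.0481, permutation p = 0.838, adjusted p 0.948) and r = 0.176 with SN over 22 mice (permutation p = 0.436, adjusted p 0.653; rho = 0.121, permutation p = 0.589, adjusted p 0.785). Without their 2 farthest mice these were -0.257 and -0.132. Whether the relations differ between the models was not tested.

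**Figure D3:**
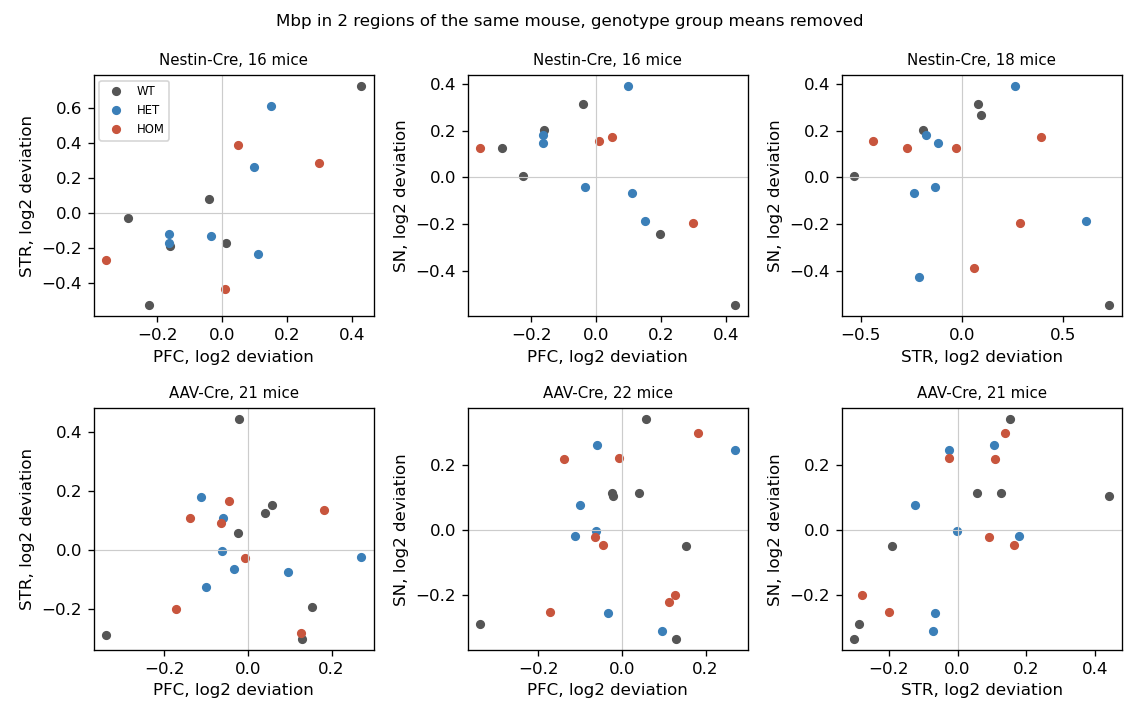
Mbp in pairs of regions of the same mouse, each axis giving the log2 deviation of a library from its genotype group mean, with points for mice coloured by the genotype label of the region on the x axis and models in rows. Points rise together for PFC and STR of Nestin-Cre mice (r = 0.713, 16 mice) and for STR and SN of AAV-Cre mice (r = 0.636, 21 mice), and run in opposite directions for PFC and SN of Nestin-Cre mice (r = -0.653, 16 mice).

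The genes lie on 15 chromosomes, with 5 on chromosome 3 (Car2, Cldn11, Hapln2, Tspan2 and Ugt8a) and 4 on chromosome 11 (Aspa, Cnp, Evi2a and Gal3st1). Galnt6 and Sox10 share chromosome 15 with Gdnf. In GRCm38, the other genes called in a genotype comparison are Galnt6 (Entrez 207839, chr15:100689915-100729376, minus strand), Gpr37 (Entrez 14763, chr6:25668523-25689980, minus strand), Fa2h (Entrez 338521, chr8:111345138-111393821, minus strand) and Myrf (Entrez 225908, chr19:10208271-10240748, minus strand). The ranges are those of the annotated exons of each gene. Exons of 5 of the 35 overlap those of a neighbour: Evi2a on the same strand, with Evi2 (442 bases), and Bcas1, Tspan2, Nkx6-2 and Cryab on the opposite strand, with Bcas1os2, Tspan2os, Inpp5a and Hspb2. The counts of these 5 are uncertain to that extent.

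The promoters of the genes were searched for letters that Sox10 and Myrf are known to recognise. RefSeq windows of GRCm38.p6, 250 bases before to 50 after a gene's start, were matched to the 35 genes by symbol. The search used 37 windows of 25 genes. It used none for Bcas1, Car2, Cryab, Evi2a, Fa2h, Mbp, Myrf, Olig1, Sox10 and Trf. Windows on the chromosome of Mbp were left out of the matching by choice, so whether Mbp has a window was not tested. The count of all windows was not cut in this way. The letters ACAAAG, from the core of sites bound by HMG-box factors such as Sox10, were looked for on both strands. They were in 13 of the 37 windows (35.1%), of 10 genes, and in 6147 of all 32851 windows (18.7%). The letters CTGGCAC, from the sites of Myrf, were in 7 of the 37 windows (18.9%), of 6 genes, and in 1646 of all windows (5.01%). Cnp, Lpar1, Mag and Opalin held both. A match is a description of letters, not a binding site. Windows of Gjb1, the gene with the lowest fold change in PFC of Nestin-Cre HOM mice, and of the myelin genes Mag, Cnp and Mobp are given 5′ to 3′ on the strand of the gene, with matches on either strand in capitals, CTTTGT being ACAAAG on the other strand. Gjb1 is at chrX:101376126-101376425 (plus strand), Mag at chr7:30914873-30915172 (minus strand), Cnp at chr11:100574689-100574988 (plus strand) and Mobp at chr9:120149492-120149791 (plus strand).
Gjb1: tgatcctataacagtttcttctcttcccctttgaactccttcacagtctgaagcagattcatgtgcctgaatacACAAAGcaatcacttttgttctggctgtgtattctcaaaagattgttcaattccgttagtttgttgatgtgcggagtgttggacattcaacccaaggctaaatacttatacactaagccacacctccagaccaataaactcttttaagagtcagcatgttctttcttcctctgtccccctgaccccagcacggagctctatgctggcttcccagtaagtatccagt
Mag: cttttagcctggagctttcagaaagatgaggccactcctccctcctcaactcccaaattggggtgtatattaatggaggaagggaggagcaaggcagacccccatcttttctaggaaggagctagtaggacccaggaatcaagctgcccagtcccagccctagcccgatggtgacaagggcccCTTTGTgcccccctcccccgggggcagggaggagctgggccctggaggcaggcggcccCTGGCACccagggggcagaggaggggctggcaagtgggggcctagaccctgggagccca
Cnp: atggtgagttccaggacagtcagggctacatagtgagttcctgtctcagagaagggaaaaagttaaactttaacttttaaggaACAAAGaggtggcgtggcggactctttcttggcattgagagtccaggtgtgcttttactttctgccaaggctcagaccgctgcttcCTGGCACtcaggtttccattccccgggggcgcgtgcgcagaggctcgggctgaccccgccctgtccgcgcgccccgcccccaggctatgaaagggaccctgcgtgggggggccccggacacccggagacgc
Mobp: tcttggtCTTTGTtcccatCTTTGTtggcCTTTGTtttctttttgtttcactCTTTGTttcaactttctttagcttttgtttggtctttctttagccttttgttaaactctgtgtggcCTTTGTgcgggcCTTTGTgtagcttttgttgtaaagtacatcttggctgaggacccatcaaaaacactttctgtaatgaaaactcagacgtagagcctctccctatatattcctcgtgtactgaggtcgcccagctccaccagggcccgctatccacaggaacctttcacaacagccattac
Mag and Cnp each held 1 match to both sets of letters, Gjb1 held 1 ACAAAG, and Mobp held 6 ACAAAG, all on the other strand.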

How the data were processed

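Gene counts of 121 libraries (TruSeq Stranded mRNA, 75 bp single-end reads) were used as deposited by the authors, who called bases with bcl2fastq 2.20.0.422, aligned reads with STAR 2.5.2b to mm10 and counted them in annotated exons with featureCounts 1.5.1. The strand setting of the counting is not stated. Of 24412 genes, 6 have no symbol, and 0 value columns were left unused. Each library is 1 region of 1 mouse, and mice were the replicates. A gene entered a fit where 3 or more of its libraries held 1 cpm or more, and was tested in edgeR 4.0.16 (TMM scaling, quasi-likelihood test, R 4.3.3), and a gene was called at an adjusted p under 0.1. DESeq2 1.42.0 served as an alternative, limma 3.58.1 for the correlation within mice, and Python 3.11.15 with pandas 2.3.3, scipy 1.17.1 and matplotlib 3.10.9 for tables, permutations and figures. Printed cpm are not TMM-scaled, fold changes are. The fits were tested on simulated data, where DESeq2 made more false calls than its threshold allows and more than both edgeR tests. Once this was seen, DESeq2 was held there only to giving the same calls as an ordinary DESeq2 run, within a small margin.

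Per-library values are given for each gene called in a genotype comparison and, in every comparison, for Mbp, Mobp, Mag, Cnp, Ugt8a, Olig2, Sox10 and Myrf. The genes with the highest and lowest log2 fold change of each comparison of genotypes, of regions or of the WT mice of the models, and Gdnf, are named too. This was not done for the interactions. Other genes that are named were chosen after their values were seen. The members and the cell type lists were chosen with earlier results of these data known. Libraries of the same mouse were checked for belonging together by correlating deviations from group means over 14038 genes: the median r was 0.190 to 0.300 for the same mouse and -0.019 to -0.002 for different mice. The lowest r of a pair was -0.200. Alternatives were other tests, scalings, filters and thresholds, other sets of libraries in the fit, the mouse as a block, and leaving out each PFC library. Values of some genes of the cell type lists are not reported here.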

Additional observations from a re-analysis of the deposited data

Results flagged for a closer look

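Single libraries stood far from the rest of their group in 12 of 288 group values, taken from 15 genes and the mean log2 level of the 35 genes in 18 groups. Chance alone sets apart about 1 in 20 groups, and 12 of 288 is not above that rate. The values come from the same libraries, in which the genes tended to go together. They are thus not 288 separate tests, and the rate gives no verdict on chance. In Nestin-Cre mice, Fa2h was at 21.4 cpm in PFC of HOM mouse M4580 against 27.6 to 28.8 cpm in the other HOM libraries, and Mobp at 293 cpm in PFC of WT mouse M4394 against 158 to 221. In STR the same WT mouse M4394 had Mag at 424 cpm against 227 to 281 and Mobp at 566 cpm against 264 to 371. In SN of HET mouse M4628 the mean log2 level of the 35 genes was -0.59 against -0.28 to -0.10 in the other HET libraries, and Cnp was at 922 cpm against 1130.0 to 1242. In PFC of AAV-Cre mice, Mbp was at 1998 cpm in WT mouse M3677 against 2486 to 2808, and Ermn at 65.8 cpm in WT mouse M3578 against 51.1 to 57.0. Gpr37 was at 75.3 cpm in HET mouse M3652 against 54.9 to 58.4, Cldn11 at 72.8 cpm in HOM mouse M3606 against 86.2 to 97.7, and Myrf at 75.9 cpm in HOM mouse M3570 against 56.3 to 63.4. In SN of AAV-Cre mice, Galnt6 was at 94.8 cpm in HET mouse M3652 against 55.7 to 68.7.

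A difference between the models set apart 10 genotype effects in PFC, by the interaction test. For HET against WT the effect in Nestin-Cre minus that in AAV-Cre mice was -0.60 for Cldn11, -0.59 for Mal, -0.52 for Ugt8a and -0.50 for Mag on the log2 scale. For HOM against WT it was -0.82 for Gjb1, -0.60 for Ermn, -0.53 for Ugt8a, -0.45 for Fa2h, -0.41 for Cnp and -0.38 for Gpr37.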

How the results depend on the processing

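The count of the 35 genes called stayed within 1.5 times the reported count in 226 cases of a result and an alternative. It moved further in 41. The median log2 fold change moved in all 267 by less than the SD between WT mice of the mean log2 level of the 35 genes. This bound is loose, as that SD ran from 0.131 in AAV-Cre PFC to 0.283 in Nestin-Cre STR and many medians were nearer to 0. For PFC against SN of Nestin-Cre HET mice the median ran from -0.22 to -0.09 over the alternatives. In Nestin-Cre PFC the HET count of 0 became 25 with the likelihood ratio test, 14 with DESeq2, 9 in a fit of WT and HET alone and 12 without mouse M4575, and ran from 0 to 12 as single PFC libraries were left out. The HOM count of 5 became 1 at an adjusted p under 0.05, 25 with the likelihood ratio test, 14 with DESeq2, 1 in a fit of WT and HOM alone and 0 with all regions in the fit, and ran from 1 to 8 as single libraries were left out. The likelihood ratio test also called 1 and 1 (HET and HOM) in Nestin-Cre STR, 9 and 2 in Nestin-Cre SN, 1 and 3 in AAV-Cre PFC and 4 in AAV-Cre STR HOM, where the quasi-likelihood test called 0. Shares of all genes are not given for that test outside Nestin-Cre PFC, nor for the fits of other sets of libraries. Leaving out single libraries, chosen after seeing the data, the counts for Nestin-Cre against AAV-Cre in PFC ran from 0 to 6 in HET and from 3 to 12 in HOM. The relation of Mbp between PFC and STR of Nestin-Cre mice had r = 0.574 without the 2 farthest mice, and that between PFC and SN had r = -0.498 without them and rho = -0.512 by rank. The cause was not tested. Of the log2 fold changes of named genes 790 kept their side of the threshold, 81 passed it and 109 no longer did, with 0 changes of direction among called values. With the mouse as a block 28 of the 35 genes were called between STR and PFC of Nestin-Cre WT mice in place of 32, and no other call count of regions or interactions changed. The shares of all genes with the block are not given here. DESeq2 size factors moved the median of the 35 genes by at most 0.0523.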
